A study of Mus musculus with 12 samples.

Results

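Chromatin accessibility was compared between neuronal and oligodendrocyte-lineage nuclei of wild-type mouse forebrain, in 4 of the 12 ATAC-seq libraries of the study. ATAC-seq marks the places where a transposase could insert sequencing adapters into DNA, so that open chromatin gathers more sequence tags. The 2 NeuN+ libraries came from sorted nuclei positive for NEUN and negative for PU.1 and OLIG2. The 2 Olig2+ libraries came from nuclei positive for OLIG2 and negative for PU.1 and NEUN. All 4 libraries were from C57BL/6 mice of genotype WT aged 4 months, and the nuclei had been lightly fixed with formaldehyde. They were chosen by the genotype and the sorted nuclei named on their labels, with no measured value. The corresponding nuclei of SgshKO mice of the same strain and age, which lack the lysosomal sulfamidase gene Sgsh, gave 2 libraries for each sort and served only to repeat the comparison. The sources used here give neither the number nor the sex of the animals behind each library, so p-values measure the spread between these libraries, which may be technical.

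NeuN is the RNA-binding splicing protein encoded by Rbfox3 and stains the nuclei of most mature neurons. OLIG2 is a basic helix-loop-helix transcription factor of the oligodendrocyte lineage, which runs from dividing precursors to the cells that wrap axons in myelin. Promoters of broadly used genes are open in many cell types, whereas distal elements such as enhancers are known to be more restricted to the cell types that use them. Both sorts mix subtypes, so a higher tag count from more nuclei with an open site cannot be told apart from one with a more open site in each nucleus.

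Promoter sequences are shown first for 3 genes whose start-site peaks were higher in NeuN+ nuclei, because their windows hold a motif whose share in each class of windows is given below. Each is the 250 bases upstream of a RefSeq start on GRCm38.p6, printed 5′ to 3′ on the gene's strand, with matches to the RFX motif GTTGCCATG on either strand in capitals. The windows are chr5:124187183-124187432 on the minus strand for Pitpnm2, chr7:140082549-140082798 on the minus strand for Caly and chr3:94484077-94484326 on the plus strand for Celf3. The match lies 115 bp, 48 bp and 52 bp upstream of the start, in that order. All 3 promoters were chosen after their values were seen.
Pitpnm2: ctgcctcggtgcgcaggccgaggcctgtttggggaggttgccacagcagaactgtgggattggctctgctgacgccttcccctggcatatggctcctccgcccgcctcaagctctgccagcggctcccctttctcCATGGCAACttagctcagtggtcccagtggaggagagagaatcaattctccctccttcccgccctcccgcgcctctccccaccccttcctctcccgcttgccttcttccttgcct
Caly: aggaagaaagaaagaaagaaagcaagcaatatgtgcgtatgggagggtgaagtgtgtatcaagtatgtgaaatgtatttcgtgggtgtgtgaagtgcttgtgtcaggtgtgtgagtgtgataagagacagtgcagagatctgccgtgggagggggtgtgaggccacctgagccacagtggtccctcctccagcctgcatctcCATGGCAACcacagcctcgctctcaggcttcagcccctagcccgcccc
Celf3: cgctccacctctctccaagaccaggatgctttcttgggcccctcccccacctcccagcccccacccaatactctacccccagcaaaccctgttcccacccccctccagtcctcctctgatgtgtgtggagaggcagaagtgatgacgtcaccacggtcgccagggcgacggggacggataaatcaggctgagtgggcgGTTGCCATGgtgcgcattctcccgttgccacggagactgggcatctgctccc

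Pitpnm2, a membrane-bound phosphatidylinositol transfer protein, had 108 and 119 tags in the NeuN+ libraries and 8.3 and 7.16 in the Olig2+ libraries at this start site. Caly, the vesicle protein calcyon, had 116 and 126 tags in NeuN+ nuclei against 10.9 and 14.3 in Olig2+ nuclei. Celf3, a neuronal RNA-binding splicing factor, had 133 and 125 tags in NeuN+ nuclei against 13 and 15.8 in Olig2+ nuclei. Tags are scaled to 10000000 tags per library throughout. Log2 differences at the 3 start sites were 3.71 ± 0.20, 3.18 ± 0.18 and 3.08 ± 0.17 (fit SE, n = 2 libraries a sort).

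The other 2 promoters carry peaks found in the Olig2+ peak set alone and hold the SOX motif AACAAAG, searched on both strands and shown in capitals. They are the 250 bases upstream of the starts of Mobp, a myelin structural protein, at chr9:120149492-120149741 on the plus strand, and of Phldb1, a pleckstrin homology domain protein, at chr9:44735199-44735448 on the minus strand. The Mobp window has 4 matches, between 198 and 243 bp upstream, and the Phldb1 window has 1, at 196 bp. The Olig2+ peaks over these windows had a mean of 182 and 370.0 tags. Both were chosen after their values were seen, and a match is a description of the letters, not a bound site.
Mobp: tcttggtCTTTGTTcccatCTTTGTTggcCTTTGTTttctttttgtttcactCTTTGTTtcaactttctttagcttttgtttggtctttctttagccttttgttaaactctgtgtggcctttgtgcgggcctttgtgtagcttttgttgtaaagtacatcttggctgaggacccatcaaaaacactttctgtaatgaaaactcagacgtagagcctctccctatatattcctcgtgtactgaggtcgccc
Phldb1: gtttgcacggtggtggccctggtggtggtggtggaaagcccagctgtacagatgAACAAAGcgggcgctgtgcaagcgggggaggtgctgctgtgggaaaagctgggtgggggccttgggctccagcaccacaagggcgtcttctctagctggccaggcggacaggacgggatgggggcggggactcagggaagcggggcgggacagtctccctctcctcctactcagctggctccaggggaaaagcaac

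The oligodendrocyte microRNAs miR-219a and miR-338 and the neuronal miR-124 had peaks within 2000 bp whose tags are given below, and were chosen after their values were seen. The mature sequences of miR-219a and miR-338 from RefSeq are printed 5′ to 3′ with the seed, bases 2 to 8, in capitals. They do not share a seed.
mmu-miR-219a-5p: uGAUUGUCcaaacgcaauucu
mmu-miR-338-3p: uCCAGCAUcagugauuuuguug

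The printed pair is known for promoting the maturation of oligodendrocytes. Peaks at these genes were counted by nearest gene. Within 2000 bp of Mir219a-2 the Olig2+ peak set held 4 such peaks, all 4 without a NeuN+ counterpart, and the strongest had 145 and 133 tags. The only such NeuN+ peak had 11.3 and 9.04 tags. At Mir338 the strongest Olig2+ peak had 126 and 99.2 tags and the strongest NeuN+ peak had 14.7 and 11.3. These strongest peaks were not paired one to one. The 2 pairs of peaks at Mir338 that overlapped one to one were higher in Olig2+ nuclei, with log2 differences of -1.65 and -1.42. The 3 genes for miR-124 had more peaks in the NeuN+ set. Mir124a-3 had 7 NeuN+ peaks, 5 of them without an Olig2+ counterpart, and Mir124a-2 had 4 NeuN+ peaks and none in the Olig2+ set. At Mir124a-1 the strongest NeuN+ peak had 90.6 and 89.2 tags, and the strongest Olig2+ peak had 10.9 and 12.8. The 2 NeuN+ peaks there with a one-to-one Olig2+ partner were higher in NeuN+ nuclei, with log2 differences of 1.44 and 2.83.

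The authors called peaks separately for the 2 sorts, each over WT and SgshKO libraries together. The NeuN+ set holds 107627 peaks and the Olig2+ set 82577. Peaks that overlapped one to one by at least 50% of both lengths numbered 29547, which is 27.5% of the NeuN+ set and 35.8% of the Olig2+ set. These are called shared peaks, and 29333 of them carry the same nearest gene in both sets. A further 73541 NeuN+ peaks (68.3%) and 48444 Olig2+ peaks (58.7%) overlapped no peak of the other set and are called unpaired. The WT libraries hold 17653808 and 17706971 tags for NeuN+ nuclei and 19279923 and 19555924 for Olig2+ nuclei. Shares of tags inside peaks were 26.7% and 25.9% in NeuN+ nuclei and 31.8% in both Olig2+ libraries. Replicates correlated at 0.974 and 0.978 across shared peaks on the log2 scale, against 0.718 to 0.723 between the sorts.

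The sorted antigens matched the labels. Rbfox3 had 6 start-site peaks in the NeuN+ set, none with an Olig2+ counterpart, and the strongest had 32.3 and 28.8 tags. Olig2 had a start-site peak in the Olig2+ set alone, with 194 and 184 tags. A start-site peak here is one centred within 1000 bp of an annotated transcription start. Summed over all start-site peaks of a list's genes in each set, 18 pan-neuronal markers gave 2640 and 2563 tags in NeuN+ nuclei against 1094 and 1122 in Olig2+ nuclei. The 20 myelin and mature oligodendrocyte markers gave 378 and 341 tags in NeuN+ nuclei against 5938 and 5874 in Olig2+ nuclei.

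Markers of other brain cells were low or mixed. Of 13 microglia markers, 11 had no start-site peak in either set, among them Cx3cr1, P2ry12, Tmem119, Csf1r and Spi1, which encodes PU.1. Sall1 was found in the Olig2+ set alone with 118 tags in both libraries. Of 13 endothelial and pericyte markers, 10 had none, and the list summed to 34.6 and 37.3 tags in NeuN+ nuclei against 3.63 and 2.56 in Olig2+ nuclei. The 15 astrocyte markers summed to 400.0 and 361 tags in NeuN+ nuclei against 299 and 266 in Olig2+ nuclei, and the defining genes Aldh1l1, Aqp4, Gfap and Gja1 had no start-site peak in either. The part of such cells in the results was not tested.

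Most shared sites differed in accessibility between the sorts, in both directions. Of 29547 shared peaks, 17714 (60.0%) passed an adjusted p of 0.05 by limma across all shared peaks. Higher tags were found in NeuN+ nuclei at 7202 (24.4%) and in Olig2+ nuclei at 10512 (35.6%). A difference of at least 2-fold accompanied the call at 3647 peaks higher in NeuN+ nuclei (12.3%) and at 5035 higher in Olig2+ nuclei (17%). The values of the sorts did not overlap at 17688 of the 17714 called peaks.

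The share of calls on each side rested on how the libraries were scaled. The median log2 difference over all shared peaks was -0.14 at the deposited scale, and 40.7% of calls were higher in NeuN+ nuclei. Scaling to the sum over shared peaks moved the median to 0.17 and that share to 59.7%. Median-of-ratios scaling gave a median of 0.001 and 49.5%, quantile normalization 0.015 and 51.8%, edgeR on the recovered reads 49.8% and DESeq2 47.7%. Differences below about this shift in size are therefore read against the median, and counts under the other scalings are given below for most gene groups.

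**Figure D1:**
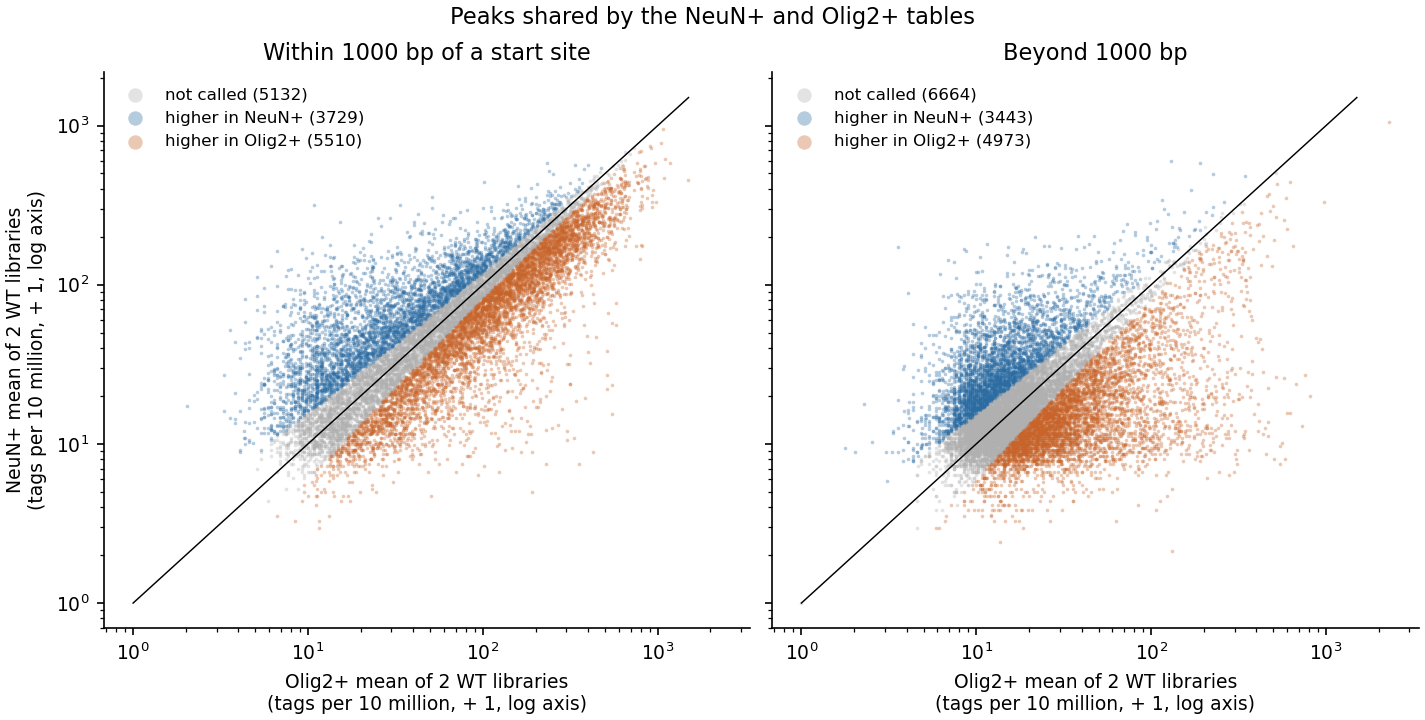
Mean WT tags plus 1, in libraries scaled to 10000000 tags, at each shared peak, Olig2+ nuclei on the x axis and NeuN+ nuclei on the y axis, both log axes, for peaks within and beyond 1000 bp of a start site. Points are peaks, coloured by the limma call, and the line marks equal values. The start-site panel holds 3729 peaks higher in NeuN+ nuclei and 5510 higher in Olig2+ nuclei, and the distal panel 3443 and 4973.

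Called differences were larger at distal than at start-site peaks. Of 14371 shared start-site peaks, 9239 were called, and the median size of a called difference was 0.85 on the log2 scale. Of 15080 shared distal peaks, 8416 were called, with a median size of 1.14. Differences of at least 2-fold made up 25.2% of start-site peaks and 33.3% of distal peaks. The excess lay on the Olig2+ side, where 20.7% of distal and 13.2% of start-site peaks were higher by at least 2-fold, against 12.6% and 12.0% on the NeuN+ side. The direction of each class moved with the scaling: under quantile normalization 58.0% of start-site calls and 45.0% of distal calls were higher in NeuN+ nuclei, against 40.4% and 40.9% at the deposited scale. These shares are a description, and start-site peaks carried more tags than distal ones, with medians of 52.6 and 15.6 in NeuN+ nuclei.

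By annotation, calls higher in NeuN+ nuclei made up 60.3% in exons, 39.1% in introns and 38.6% at promoters, against 40.7% over all shared peaks. Among called exon peaks 380 were higher in NeuN+ nuclei and 250 in Olig2+ nuclei. Called intron peaks split 1998 to 3107, promoter peaks 2979 to 4746 and 5′ UTR peaks 163 to 151. The median log2 difference was 0.18 in exons, 0.05 in 5′ UTRs, -0.17 in introns and -0.17 at promoters. Against the median of all shared peaks, exon peaks stood higher and intron peaks close to it, and the difference between annotation classes was not tested.

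The named start-site peaks with the largest differences towards NeuN+ nuclei belong to genes of varied roles. The peak nearest 5330417C22Rik, at chr3:108536550-108536810 (mm10) in the promoter of the neighbouring 1700013F07Rik, had 317 and 314 tags in NeuN+ nuclei against 11.4 and 8.18 in Olig2+ nuclei, a log2 difference of 4.89 ± 0.16 with adjusted p = 3.2e-17. The promoter peak of Vipr1, a receptor of vasoactive intestinal peptide, at chr9:121642529-121642781, had 177 and 146 tags in NeuN+ nuclei against 6.22 and 5.11 in Olig2+ nuclei (4.60 ± 0.20, adjusted p = 3.13e-15). Fam43b had 113 and 108 tags in NeuN+ nuclei against 4.67 and 3.58 in Olig2+ nuclei (4.45 ± 0.22). That every NeuN+ value stood above every Olig2+ value at the 3 sites was a condition for naming them.

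Hsf4, a heat shock transcription factor, had 140.0 and 119 tags in NeuN+ nuclei against 4.67 and 5.62 in Olig2+ nuclei (4.41 ± 0.21). Dbn1, the actin-binding drebrin of dendritic spines, had 79.9 and 80.2 tags in NeuN+ nuclei against 4.15 and 2.56 in Olig2+ nuclei (4.24 ± 0.25). Unc5d, a receptor of the netrin family, had 174 and 162 tags in NeuN+ nuclei against 6.22 and 10.2 in Olig2+ nuclei (4.23 ± 0.20). The Olig2+ libraries held few reads at the 6 sites, from 13 at Dbn1 to 38 at 5330417C22Rik over both libraries.

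Towards Olig2+ nuclei the largest start-site difference lay at Gm38414, a non-coding transcript, at chr8:36155450-36155682, with 6.8 and 9.04 tags in NeuN+ nuclei against 449 and 404 in Olig2+ nuclei (-5.59 ± 0.16, adjusted p = 1.88e-18). Ptgds, prostaglandin D2 synthase, at chr2:25469729-25469945, had 6.8 and 6.21 tags in NeuN+ nuclei against 373 and 335 in Olig2+ nuclei (-5.56 ± 0.16, adjusted p = 2.74e-18). Tkt, the pentose phosphate enzyme transketolase, had 2.83 and 5.08 tags in NeuN+ nuclei against 192 and 186 in Olig2+ nuclei (-5.30 ± 0.22). By the same condition, every Olig2+ value stood above every NeuN+ value at the 3 sites.

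Cd82, a membrane protein of the tetraspanin family, had 14.7 and 14.1 tags in NeuN+ nuclei against 522 and 577 in Olig2+ nuclei (-5.16 ± 0.12). Litaf, a protein of late endosomal and lysosomal membranes, had 11.9 and 7.91 tags in NeuN+ nuclei against 312 and 346 in Olig2+ nuclei (-4.94 ± 0.17). Tmem81 had 6.23 and 6.78 tags in NeuN+ nuclei against 237 and 222 in Olig2+ nuclei (-4.94 ± 0.17). The Olig2+ sites thus reached higher levels than the NeuN+ sites of the same rank, 186 to 577 tags against 79.9 to 317.

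**Figure D2:**
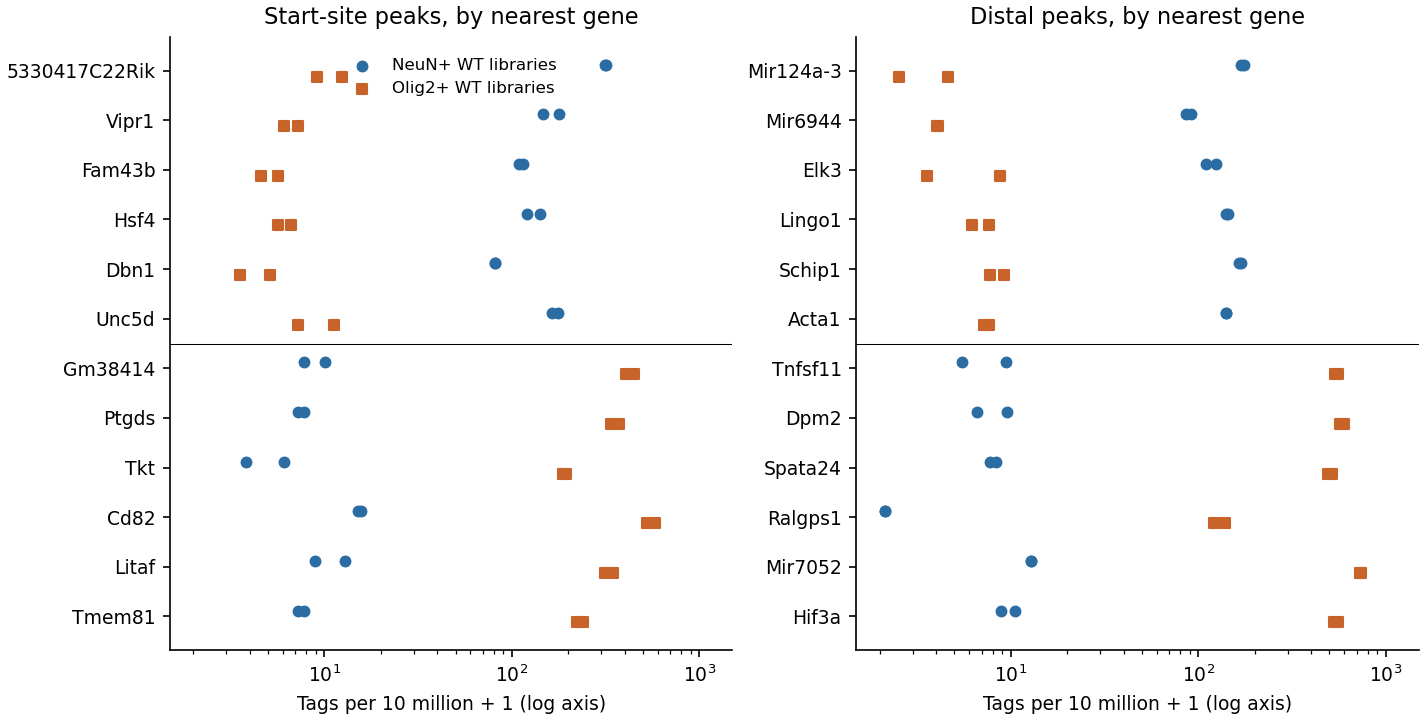
Tags plus 1 (log axis) in each WT library at the 6 shared peaks with the largest log2 differences in each direction, within (left) and beyond (right) 1000 bp of a start site, labelled by nearest gene. Circles are NeuN+ libraries and squares Olig2+ libraries, 2 each. Peaks were named only where no NeuN+ value meets an Olig2+ value.

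Distal peaks showed differences of the same order. The peak 1016 bp upstream of Mir124a-3, at chr2:180892898-180893151 between genes, had 168 and 175 tags in NeuN+ nuclei against 3.63 and 1.53 in Olig2+ nuclei (5.65 ± 0.25, adjusted p = 5.64e-15), the latter from 10 reads. The peak nearest Mir6944 lies in exon 2 of 3 of Prr7, a synaptic proline-rich membrane protein, and had 85.0 and 90.4 tags in NeuN+ nuclei against 3.11 and 3.07 in Olig2+ nuclei (4.44 ± 0.24). An intron of Elk3, an ETS transcription factor, had 123 and 109 tags in NeuN+ nuclei against 7.78 and 2.56 in Olig2+ nuclei (4.39 ± 0.29). At these 3 distal sites the Olig2+ values rest on 10 to 20 reads.

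An intron of Lingo1, a leucine-rich repeat membrane protein, had 143 and 139 tags in NeuN+ nuclei against 5.19 and 6.65 in Olig2+ nuclei (4.37 ± 0.20). An intron of Schip1, a schwannomin-interacting protein, had 165 and 168 tags in NeuN+ nuclei against 6.74 and 8.18 in Olig2+ nuclei (4.32 ± 0.18). A peak 9761 bp downstream of the start of Acta1, between genes, had 139 tags in both NeuN+ libraries and 6.22 and 6.65 in the Olig2+ libraries (4.23 ± 0.19). The NeuN+ pairs differed little at these 3 sites.

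On the Olig2+ side the first distal peak lies between genes at chr14:78383433-78383651, 75499 bp upstream of Tnfsf11, a cytokine of the TNF family, with 4.53 and 8.47 tags in NeuN+ nuclei against 557 and 538 in Olig2+ nuclei (-6.24 ± 0.18, adjusted p = 4.18e-18). An intron of Fam102a, nearest to Dpm2, had 8.5 and 5.65 tags in NeuN+ nuclei against 571 and 598 in Olig2+ nuclei (-6.20 ± 0.16). An intron of Dnajc18, nearest to Spata24, had 6.8 and 7.34 tags in NeuN+ nuclei against 515 and 489 in Olig2+ nuclei (-5.96 ± 0.14). The nearest gene differs from the gene that contains the peak at the last 2 sites.

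An intron of Ralgps1, an exchange factor for Ral GTPases, had 1.13 tags in both NeuN+ libraries, 4 reads in all, and 121 and 138 in Olig2+ nuclei (-5.94 ± 0.25). The peak nearest Mir7052 had 11.9 tags in both NeuN+ libraries and 736 and 726 in Olig2+ nuclei (-5.83 ± 0.12). The first intron of Hif3a, a hypoxia-inducible factor subunit, at chr7:17058188-17058405, had 7.93 and 9.6 tags in NeuN+ nuclei against 529 and 557 in Olig2+ nuclei (-5.81 ± 0.14). In the SgshKO Olig2+ libraries the Hif3a peak had 93.5 and 89.1 tags, below both WT values.

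Gene groups were read at the strongest shared start-site peak of each gene. Over all 10633 genes with such a peak, 27.2% were called higher in NeuN+ nuclei and 40.7% higher in Olig2+ nuclei, with a median log2 difference of -0.14. A gene may instead have a start-site peak in 1 set alone, in both sets without a one-to-one partner, or in neither. Some lists share genes, so they are not independent of each other. Genes named are among the first 4 of each list with a shared peak, and further genes were chosen after their values were seen. Where leaving out 1 library ended the call of a gene named, the value without it follows.

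**Figure D3:**
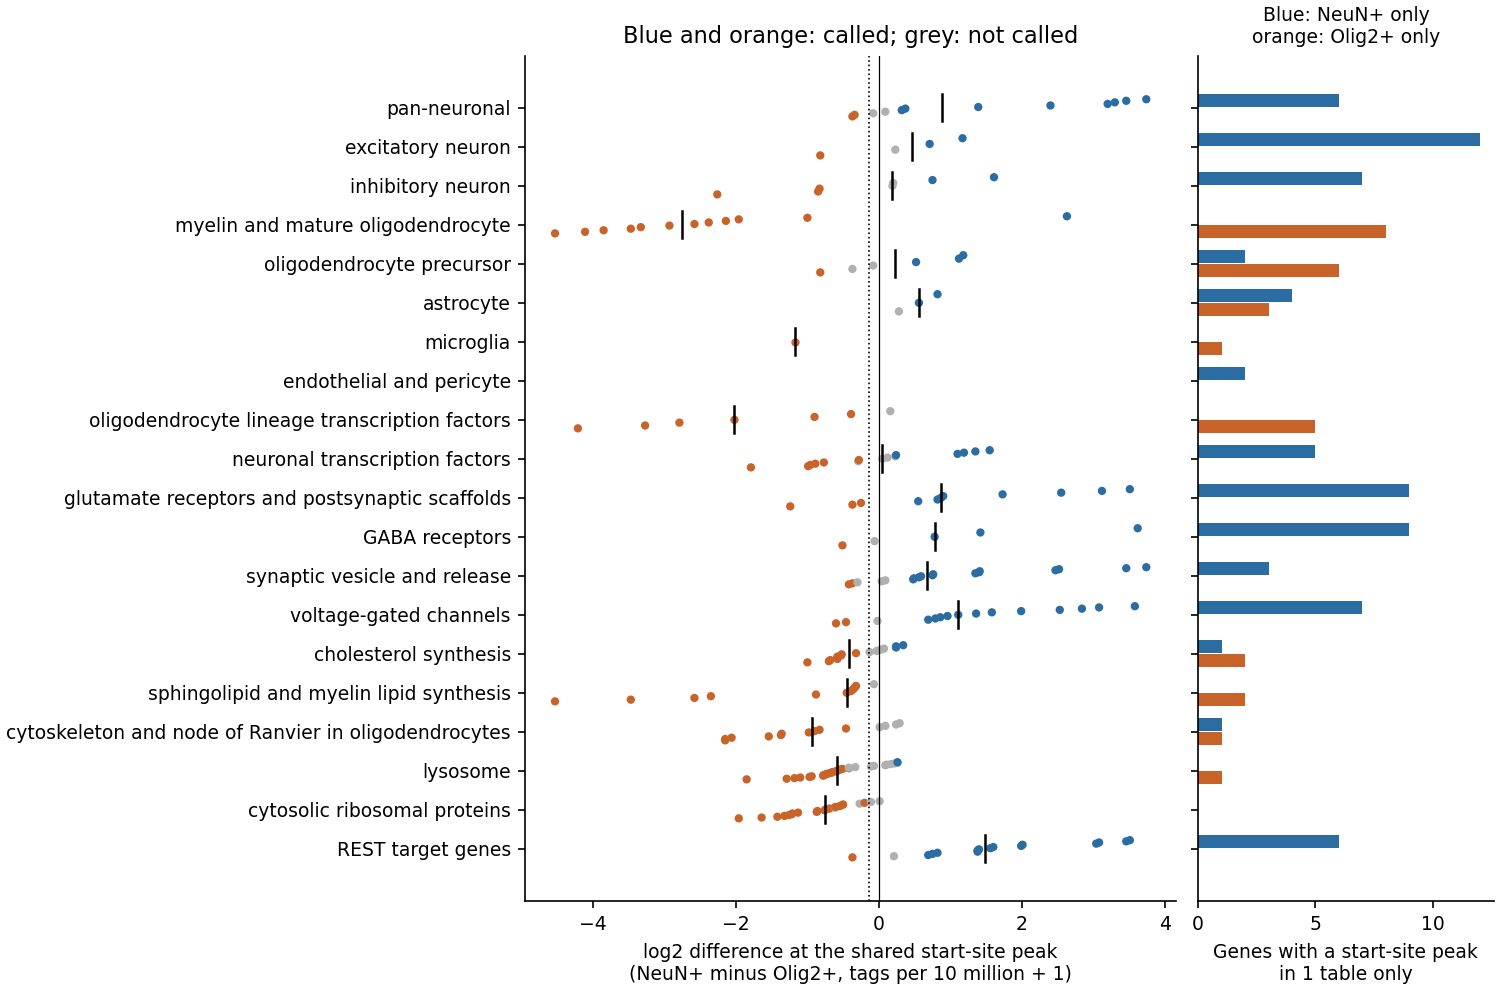
Left, log2 difference (NeuN+ minus Olig2+, tags plus 1) at the strongest shared start-site peak of each gene, by gene list. Each point is a gene, blue or orange where called and grey where not, the bar is the list's median and the dotted line the median of all genes with a shared start-site peak. Right, number of genes of each list whose start-site peak is in 1 peak set alone, blue for NeuN+ and orange for Olig2+. The myelin list has its median at -2.76 with 1 gene, Mbp, above 0, and 8 further genes in the Olig2+ set alone.

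Myelin genes had the lowest median of all lists. Of 20 genes, 12 had a shared start-site peak, 11 of them higher in Olig2+ nuclei and 1 higher in NeuN+ nuclei, with a median log2 difference of -2.76, and the other 8 had a start-site peak in the Olig2+ set alone. Cnp, a cytoplasmic myelin enzyme, had 35.1 and 27.1 tags in NeuN+ nuclei against 154 and 126 in Olig2+ nuclei (-2.14 ± 0.16). The strongest Olig2+ start-site peak of Cnp was another one, with 656 and 677 tags. Cldn11, the tight junction protein of myelin, had 13 and 10.7 tags in NeuN+ nuclei against 196 and 172 in Olig2+ nuclei (-3.85 ± 0.17). The 11 to 1 split was the same under all 4 other scalings. Among the genes in the Olig2+ set alone, Mog had 285 and 283 tags, Mag 248 and 253 and Mobp 236 and 219.

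Mbp, myelin basic protein, was the exception at its shared peak. That peak lies at the start of transcript NM_010777, upstream of the start of most Mbp transcripts, and had 74.8 and 66.6 tags in NeuN+ nuclei against 11.4 and 9.72 in Olig2+ nuclei (2.63 ± 0.21, adjusted p = 1.26e-10). A different peak at the start of transcript NM_001025259, in the Olig2+ set alone, had 532 and 543 tags and was the strongest unpaired start-site peak of Olig2+ nuclei. The upstream start of Mbp is known as that of the golli transcripts, which neurons also make, and the downstream start as that of the classic myelin transcripts. The gene therefore had a start in each sort, at different positions.

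Transcription factors of the oligodendrocyte lineage followed the myelin genes. Of 16 genes, 7 had a shared start-site peak, 6 were higher in Olig2+ nuclei and none in NeuN+ nuclei, with a median of -2.02, and 5 more were in the Olig2+ set alone. Olig1, the neighbour and relative of Olig2, had 34.5 and 27.1 tags in NeuN+ nuclei against 310.0 and 298 in Olig2+ nuclei (-3.27 ± 0.13). Zfp536, a zinc finger repressor, had 17 and 10.7 tags in NeuN+ nuclei against 99.6 and 99.7 in Olig2+ nuclei (-2.79 ± 0.20). Zeb2 had 25.5 and 28.2 tags in NeuN+ nuclei against 43.6 and 59.8 in Olig2+ nuclei (-0.90 ± 0.19), and its call was lost without Olig2+ replicate 2 (-0.68). Hes5, a Notch target, had 10.8 and 18.6 tags in NeuN+ nuclei against 11.9 and 13.3 in Olig2+ nuclei, which overlap, and was not called. The strongest Hes5 start-site peak of each set was another one, with 39.6 and 48.6 NeuN+ tags and 24.4 and 16.9 Olig2+ tags. Under the other scalings 5 of the 7 were higher in Olig2+ nuclei and none in NeuN+ nuclei. Sox10, a key factor of the lineage, was in the Olig2+ set alone with 236 and 232 tags.

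Precursor markers were divided between the sorts. Of 16 genes, 6 had a shared start-site peak, with 3 higher in NeuN+ nuclei, 1 higher in Olig2+ nuclei and a median of 0.22, while 6 others were in the Olig2+ set alone and 2 in the NeuN+ set alone. The 3 to 1 split was the same under the other scalings. Pdgfra, the growth factor receptor of precursors, had 21 and 20.3 tags in NeuN+ nuclei against 21.8 and 22 in Olig2+ nuclei, and was not called. Ptprz1, a receptor phosphatase, had 22.7 and 27.7 tags in NeuN+ nuclei against 12.4 and 9.72 in Olig2+ nuclei (1.12 ± 0.25). Vcan, the matrix proteoglycan versican, had 10.2 tags in both NeuN+ libraries and 17.6 and 10.2 in Olig2+ nuclei, and was not called. Lhfpl3 had 39.6 and 37.3 tags in NeuN+ nuclei against 27 and 26.1 in Olig2+ nuclei (0.52 ± 0.19), a call lost without NeuN+ replicate 1 (0.48), Olig2+ replicate 1 (0.54) or Olig2+ replicate 2 (0.50). Gpr17, a receptor of differentiating precursors, was in the Olig2+ set alone with 123 and 133 tags.

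In the list for sphingolipids and myelin lipids 10 of 11 genes with a shared peak were higher in Olig2+ nuclei and none in NeuN+ nuclei. The median was -0.45, and the other scalings gave 5 or 6 higher in Olig2+ nuclei against 0 or 1 in NeuN+ nuclei. Ugt8a, which makes galactosylceramide, had 17 and 19.2 tags in NeuN+ nuclei against 226 and 196 in Olig2+ nuclei (-3.47 ± 0.15). Gal3st1, which sulfates it to sulfatide, had 21.5 and 20.9 tags in NeuN+ nuclei against 529 and 495 in Olig2+ nuclei (-4.53 ± 0.12). Fa2h, a fatty acid hydroxylase, had 35.7 and 26.5 tags in NeuN+ nuclei against 185 and 192 in Olig2+ nuclei (-2.58 ± 0.15). These 3 genes act in the making of myelin galactolipids and are counted in the myelin list too. Cers2, a ceramide synthase, followed with 19.8 and 16.9 tags in NeuN+ nuclei against 89.7 and 106 in Olig2+ nuclei (-2.35 ± 0.18).

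Cholesterol synthesis genes were open in both sorts and differed little. Of 16 genes with a shared peak, 9 were higher in Olig2+ nuclei and 3 in NeuN+ nuclei, with a median of -0.42. The direction flipped under quantile normalization alone (7 higher in NeuN+ nuclei, 3 in Olig2+ nuclei, median 0.05). The remaining scalings gave 8 higher in Olig2+ nuclei against 3 to 7 in NeuN+ nuclei, with medians from -0.27 to -0.1. Hmgcs1, an early enzyme of the pathway, had 431 and 453 tags in NeuN+ nuclei against 634 and 692 in Olig2+ nuclei (-0.58 ± 0.06). Sqle, squalene epoxidase, had 247 and 223 tags in NeuN+ nuclei against 332 and 372 in Olig2+ nuclei (-0.58 ± 0.08). Fdft1, squalene synthase, had 270.0 and 253 tags in NeuN+ nuclei against 371 and 385 in Olig2+ nuclei (-0.53 ± 0.08). The calls at Hmgcs1, Sqle and Fdft1 were lost under quantile normalization, with values of -0.01, -0.10 and -0.03. Mvk, mevalonate kinase, had a start-site peak in the Olig2+ set alone, with 198 and 217 tags.

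Cytoskeletal and nodal genes of oligodendrocytes gave 10 of 14 genes higher in Olig2+ nuclei and none in NeuN+ nuclei, with a median of -0.94, and 9 or 10 against 3 or 4 under the other scalings. Nfasc, neurofascin of the node and paranode, had 88.9 and 105 tags in NeuN+ nuclei against 91.3 and 100 in Olig2+ nuclei, which overlap, and was not called. Cntn2, a contactin beside the node, had 127 and 152 tags in NeuN+ nuclei against 263 and 257 in Olig2+ nuclei (-0.90 ± 0.10). Ank2, an ankyrin, had 108 and 123 tags in NeuN+ nuclei against 104 and 91.5 in Olig2+ nuclei, not called at the deposited scale and called higher in NeuN+ nuclei under the 4 other scalings (0.38 to 0.55). Sirt2, a tubulin deacetylase, had 12.5 and 9.6 tags in NeuN+ nuclei against 20.8 and 24.5 in Olig2+ nuclei (-0.98 ± 0.26), a call lost when tags were taken per 200 bp of peak (-0.59) and without Olig2+ replicate 2 (-0.86).

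Neuronal genes differed in degree. Of 18 pan-neuronal markers, 12 had a shared start-site peak, 8 higher in NeuN+ nuclei and 2 higher in Olig2+ nuclei, with a median of 0.88, and the other 6 were in the NeuN+ set alone. Snap25, a synaptic SNARE protein, had 92.9 and 89.8 tags in NeuN+ nuclei against 6.22 and 8.69 in Olig2+ nuclei (3.46 ± 0.21). Syt1, the calcium sensor of transmitter release, had 178 and 174 tags in NeuN+ nuclei against 10.9 and 13.8 in Olig2+ nuclei (3.74 ± 0.17). Tubb3, neuronal tubulin, had 138 and 120.0 tags in NeuN+ nuclei against 104 and 102 in Olig2+ nuclei (0.32 ± 0.12), a call lost without NeuN+ replicate 1 (0.22), Olig2+ replicate 1 (0.33) or Olig2+ replicate 2 (0.30). Marker genes of neurons thus ranged from nearly closed to equally open promoters in Olig2+ nuclei. Syn1, synapsin of the vesicle surface, had 113 and 100 tags in NeuN+ nuclei against 139 and 136 in Olig2+ nuclei (-0.37 ± 0.11), and its call was lost under every other scaling (-0.05 to -0.22) and without Olig2+ replicate 1 (-0.35) or 2 (-0.39). The call at Map2 was lost too, and under the other scalings 9 markers were higher in NeuN+ nuclei and none in Olig2+ nuclei.

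Excitatory neuron markers mostly had no start-site peak in the Olig2+ set. Of 16 excitatory markers, 12 were in the NeuN+ set alone, among them Slc17a7, a vesicular glutamate transporter, with 86.7 and 70.6 tags. Of the 4 with a shared peak, 2 were higher in NeuN+ nuclei and 1 in Olig2+ nuclei, and 3 against 1 under the other scalings. Camk2a, a kinase of excitatory neurons, had 13.6 and 12.4 tags in NeuN+ nuclei against 6.22 and 9.2 in Olig2+ nuclei (0.71 ± 0.29), a call lost without NeuN+ replicate 1 (0.65), NeuN+ replicate 2 (0.77) or Olig2+ replicate 1 (0.46). The strongest NeuN+ start-site peak of Camk2a was another one, with 107 and 106 tags, and 6 of its NeuN+ start-site peaks were unpaired. Cux2, an upper-layer cortical factor, had 24.4 and 20.9 tags in NeuN+ nuclei against 48.2 and 34.3 in Olig2+ nuclei (-0.82 ± 0.21), a call lost without Olig2+ replicate 1 (-0.58). Rorb, a nuclear receptor of cortical layer neurons, had 72.5 and 66.1 tags in NeuN+ nuclei against 59.1 and 58.8 in Olig2+ nuclei, not called at the deposited scale and called higher in NeuN+ nuclei under the 4 other scalings (0.37 to 0.54). Foxp2 had 19.8 and 20.9 tags in NeuN+ nuclei against 8.82 and 8.18 in Olig2+ nuclei (1.17 ± 0.26).

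Inhibitory markers were mixed. Of 19 genes, 7 were in the NeuN+ set alone, 5 had no start-site peak, and of the 7 with a shared peak 2 were higher in NeuN+ nuclei and 3 in Olig2+ nuclei. The other scalings gave 1 or 2 against 2 or 3. Gad1, which makes GABA, had 13 and 7.91 tags in NeuN+ nuclei against 5.71 and 5.62 in Olig2+ nuclei (0.75 ± 0.31), a call lost under quantile normalization (0.73) and without NeuN+ replicate 1 (0.42), Olig2+ replicate 1 (0.76) or Olig2+ replicate 2 (0.74). Dlx1, a factor of interneurons, had 8.5 and 10.7 tags in NeuN+ nuclei against 21.3 and 15.3 in Olig2+ nuclei (-0.85 ± 0.27), a call lost when scaled to the sum over shared peaks (-0.56) and without NeuN+ replicate 1 (-0.70) or Olig2+ replicate 1 (-0.63). Its peak is annotated to the end of the antisense transcript Dlx1as. Adarb2 had 24.4 and 29.4 tags in NeuN+ nuclei against 24.9 and 22 in Olig2+ nuclei, which overlap, and was not called.

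Receptor and channel genes leaned to NeuN+ nuclei. Glutamate receptors and postsynaptic scaffolds gave 8 of 11 higher in NeuN+ nuclei and 3 in Olig2+ nuclei, with a median of 0.87, and 9 more genes in the NeuN+ set alone. The other scalings gave 8 against 1 or 2. Gria2, an AMPA receptor subunit, had 126 tags in both NeuN+ libraries and 75.7 and 66.5 in Olig2+ nuclei (0.82 ± 0.12). Gria4, another such subunit, had 55.0 and 61.6 tags in NeuN+ nuclei against 29.6 and 33.2 in Olig2+ nuclei (0.87 ± 0.17). Grin1, the obligatory NMDA receptor subunit, had 150 and 147 tags in NeuN+ nuclei against 15 and 9.72 in Olig2+ nuclei (3.51 ± 0.19). Subunit genes of one receptor class were thus unlike in the size of their difference. Grik1, a kainate receptor subunit, went the other way with 10.2 and 20.9 tags in NeuN+ nuclei against 34.8 and 37.3 in Olig2+ nuclei (-1.24 ± 0.26), a call lost without Olig2+ replicate 1 (-1.29) or 2 (-1.19).

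Of 15 GABA receptor genes, 9 had a start-site peak in the NeuN+ set alone, and of 5 with a shared peak 3 were higher in NeuN+ nuclei and 1 in Olig2+ nuclei, with a median of 0.78. The other scalings gave 3 against 0 or 1. Gabrg1, a GABA-A receptor subunit, had 13 and 9.6 tags in NeuN+ nuclei against 10.4 and 13.3 in Olig2+ nuclei, which overlap, and was not called. The strongest NeuN+ start-site peak of Gabrg1 was an unpaired one, with 41.4 and 40.1 tags. The GABA-B receptor subunits Gabbr1 and Gabbr2, which work as a pair, differed from each other. Gabbr1 had 120.0 and 111 tags in NeuN+ nuclei against 166 and 162 in Olig2+ nuclei (-0.51 ± 0.10), a call lost under 2 other scalings (-0.19 and -0.15). Gabbr2 had 116 and 141 tags in NeuN+ nuclei against 10.9 and 8.18 in Olig2+ nuclei (3.62 ± 0.19).

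Voltage-gated channel genes gave 12 of 15 higher in NeuN+ nuclei and 2 in Olig2+ nuclei, with a median of 1.11, and 7 more in the NeuN+ set alone. The other scalings gave 12 against 0 to 2. Scn2a, a sodium channel of axons, had 44.8 and 55.9 tags in NeuN+ nuclei against 31.6 and 29.7 in Olig2+ nuclei (0.69 ± 0.18), a call lost without Olig2+ replicate 2 (0.64). Scn8a, another sodium channel, had 91.8 and 76.8 tags in NeuN+ nuclei against 33.7 and 30.7 in Olig2+ nuclei (1.36 ± 0.16). Cacna1b, the presynaptic N-type calcium channel, had 125 and 126 tags in NeuN+ nuclei against 11.9 and 16.4 in Olig2+ nuclei (3.08 ± 0.18). These 3 were higher in NeuN+ nuclei with no overlap between the sorts, which held at 9231 of all 9239 called start-site peaks.

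Synaptic vesicle and release genes gave 13 of 18 higher in NeuN+ nuclei and 2, Syn1 and Vamp2, in Olig2+ nuclei, with a median of 0.67. The other scalings gave 14 or 15 higher in NeuN+ nuclei and none in Olig2+ nuclei. Syn3, a synapsin, had 214 and 168 tags in NeuN+ nuclei against 117 and 107 in Olig2+ nuclei (0.76 ± 0.11). The list of genes known to be repressed outside neurons by REST, a silencer that binds RE1 elements, gave 14 of 16 higher in NeuN+ nuclei and 1, Syn1, in Olig2+ nuclei, with a median of 1.48, and 14 or 15 against 0 under the other scalings. Scg3, a secretory granule protein, had 81.6 and 93.8 tags in NeuN+ nuclei against 80.4 and 70.6 in Olig2+ nuclei, not called at the deposited scale and called under the 4 other scalings (0.36 to 0.53). Chgb, chromogranin B, had 126 and 119 tags in NeuN+ nuclei against 38.4 and 43.5 in Olig2+ nuclei (1.56 ± 0.14). The median of this list was the highest among the lists with a shared peak.

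Neuronal transcription factors were mixed, with 5 of 15 higher in NeuN+ nuclei, 6 higher in Olig2+ nuclei and a median of 0.05, and with 7 or 8 against 5 under the other scalings. Mef2a, of the MEF2 family, had 31.7 and 30.5 tags in NeuN+ nuclei against 61.7 and 63.9 in Olig2+ nuclei (-0.99 ± 0.17). Mef2d had 261 and 233 tags in NeuN+ nuclei against 239 and 238 in Olig2+ nuclei, which overlap, and was called higher in NeuN+ nuclei only under the 4 other scalings (0.20 to 0.52). Mef2c was in the NeuN+ set alone, with 94.0 and 83.6 tags. Members of this family therefore differed in which sort was more open. The activity-induced factor Egr1 had 306 and 273 tags in NeuN+ nuclei against 129 and 140.0 in Olig2+ nuclei (1.10 ± 0.09). Egr3 had 51.5 and 46.9 tags in NeuN+ nuclei against 25.9 and 16.9 in Olig2+ nuclei (1.19 ± 0.21).

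Lysosomal genes and ribosomal protein genes leaned to Olig2+ nuclei, more so than the 40.7% of all genes. Of 29 lysosomal genes with a shared start-site peak, 19 were higher in Olig2+ nuclei and 1, Npc1, in NeuN+ nuclei, with a median of -0.59, and the other scalings gave 13 to 17 against 3 to 5. Lamp1, a lysosomal membrane protein, had 63.4 and 48.6 tags in NeuN+ nuclei against 92.8 and 92.6 in Olig2+ nuclei (-0.73 ± 0.15). Lamp2, its relative, had 23.2 and 28.8 tags in NeuN+ nuclei against 55.0 and 46.5 in Olig2+ nuclei (-0.94 ± 0.19). Ctsb, a protease, had 56.1 and 53.1 tags in NeuN+ nuclei against 77.3 and 83.9 in Olig2+ nuclei (-0.55 ± 0.14), a call lost when scaled to the sum over shared peaks (-0.24) and without Olig2+ replicate 2 (-0.49). Cathepsin D, Ctsd, had 104 and 113 tags in NeuN+ nuclei against 248 and 221 in Olig2+ nuclei (-1.10 ± 0.10). The sorts did not overlap at these 4 genes, nor at 9231 of all 9239 called start-site peaks. Sgsh itself had 34.5 and 22.6 tags in WT NeuN+ nuclei and 65.9 and 74.2 in WT Olig2+ nuclei (-1.29 ± 0.19).

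Of 22 cytosolic ribosomal protein genes, 18 were higher in Olig2+ nuclei and none in NeuN+ nuclei, with a median of -0.75, and the other scalings gave 13 to 16 against at most 1. Rpl3 had 61.7 and 54.8 tags in NeuN+ nuclei against 180.0 and 187 in Olig2+ nuclei (-1.64 ± 0.12). Rpl7 had 52.1 and 49.7 tags in NeuN+ nuclei against 115 and 124 in Olig2+ nuclei (-1.22 ± 0.13). Rpl5 had 18.1 and 22.6 tags in NeuN+ nuclei against 36.3 and 32.7 in Olig2+ nuclei (-0.74 ± 0.21), a call lost when scaled to the sum over shared peaks (-0.43), per 200 bp of peak (-0.47) and without Olig2+ replicate 1 (-0.67) or 2 (-0.81). The Rpl4 peak, shared with the neighbouring Zwilch, had 9.06 and 11.3 tags in NeuN+ nuclei against 19.2 and 13.3 in Olig2+ nuclei and was not called. All 4 encode proteins of the large ribosomal subunit.

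Of the astrocyte markers with a shared peak, Aldoc, an aldolase, had 34.5 and 26 tags in NeuN+ nuclei against 19.2 and 14.3 in Olig2+ nuclei (0.82 ± 0.24), a call lost without NeuN+ replicate 1 (0.62) or Olig2+ replicate 2 (0.62). Atp1b2, a sodium pump subunit, had 63.4 and 50.8 tags in NeuN+ nuclei against 41.0 and 35.8 in Olig2+ nuclei (0.56 ± 0.17), a call lost without NeuN+ replicate 1 (0.40), Olig2+ replicate 1 (0.65) or Olig2+ replicate 2 (0.46). Ntsr2, a neurotensin receptor, had 20.4 and 19.2 tags in NeuN+ nuclei against 18.1 and 14.3 in Olig2+ nuclei, and was not called. Slc1a2, a glutamate transporter, was in the NeuN+ set alone with 61.7 and 59.3 tags.

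Unpaired peaks were mainly distal. Within 1000 bp of a start site 32.8% of NeuN+ peaks and 22.1% of Olig2+ peaks were unpaired, against 78.2% and 70.5% beyond it. By annotation 24.7% of promoter peaks, 77.2% of intron peaks and 78.3% of intergenic peaks of the NeuN+ set were unpaired, and 17%, 70.5% and 68.7% of those of the Olig2+ set. A peak in 1 set alone was not called in the other sort, which does not mean that it held no tags there. Unpaired peaks had a median of 10.7 WT tags in NeuN+ nuclei and 12.4 in Olig2+ nuclei, against 24.6 and 26.3 for shared ones. In 5 unpaired NeuN+ peaks and none of the Olig2+ set both WT libraries held 0 reads. The peak sets include SgshKO libraries, and some unpaired peaks were stronger there. The SgshKO mean was over 2 times the WT mean at 8785 unpaired NeuN+ peaks (11.9%) and 2361 unpaired Olig2+ peaks (4.87%).

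**Figure D4:**
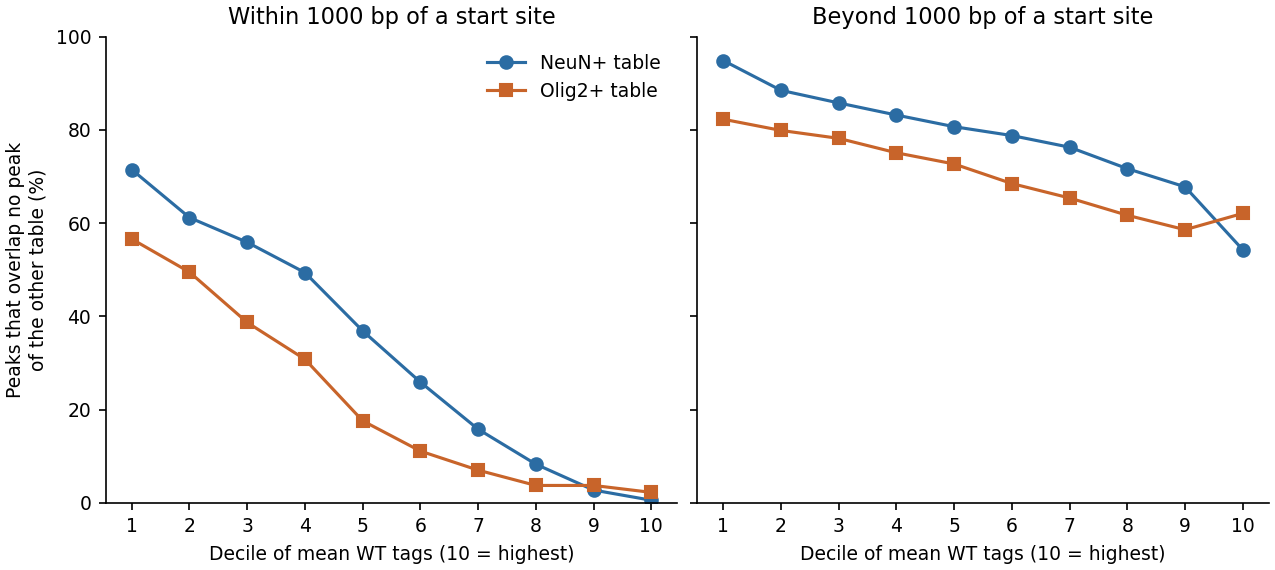
Percent of peaks that overlap no peak of the other set, by decile of mean WT tags within each set (10 is the highest), for peaks within (left) and beyond (right) 1000 bp of a start site. Circles are the NeuN+ set and squares the Olig2+ set. In the highest decile the percent is 0.556 and 2.24 at start sites and 54.3 and 62.1 at distal sites.

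The level of a start-site peak went with being shared, and that of a distal peak far less. Among start-site peaks the unpaired percent was 71.5 in the lowest decile of tags and 0.556 in the highest for NeuN+ nuclei, and 56.6 and 2.24 for Olig2+ nuclei. Among distal peaks it was 94.9 and 54.3 for NeuN+ nuclei and 82.3 and 62.1 for Olig2+ nuclei. The Olig2+ set was below the NeuN+ set in every distal decile except the highest, where it was above.

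Several of the strongest unpaired start-site peaks of both sorts stood near peaks of the other. For NeuN+ nuclei they were Sertad2 with 472 and 464 tags, 4932412D23Rik with 282 and 274, Kpna3 with 228 and 241, Eif5a with 230.0 and 232 and Leprot with 238 and 208. The nearest Olig2+ peak lay 26 to 642 bp away, and each gene had 2 or 3 start-site peaks in the Olig2+ set. For Olig2+ nuclei the strongest after Mbp were Arrdc2 with 490.0 and 529 tags, Ppp2r2cos with 505 and 474, Gm33727 with 457 and 488 and Sh3tc2, a protein of Schwann cell endosomes, with 454 and 455. Arrdc2 and Ppp2r2cos lay 4 and 182 bp from a NeuN+ peak, with 2 and 1 start-site peaks of the gene in the NeuN+ set. Gm33727 and Sh3tc2 had no start-site peak in the NeuN+ set, with the nearest NeuN+ peak 9048 and 3677 bp away.

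The strongest unpaired distal peaks of Olig2+ nuclei held more tags than those of NeuN+ nuclei. The single intron of Kcnj10, the inwardly rectifying potassium channel of glia, held a peak at chr1:172349913-172350244 with 906 and 844 tags, 8868 bp from the start. Introns of Clasrp with 822 and 780 tags, of Cd9, a tetraspanin of myelin, with 802 and 787, of Amotl2 with 777 and 795 and of Tmbim1 with 728 and 683 followed. In NeuN+ nuclei they were an intron of Palm, the membrane protein paralemmin, with 237 and 212 tags, a site between genes near Wscd2 with 157 and 175, the 3′ UTR of Synpo, synaptopodin of dendritic spines, with 156 and 165, a site near Ubl4b with 154 and 165 and an intron of Lingo1 with 160.0 and 154. The distance to the nearest peak of the other set ranged from 8 bp (Palm) to 45572 bp (Wscd2) for these NeuN+ peaks and from 187 bp (Tmbim1) to 40019 bp (Cd9) for the Olig2+ peaks.

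Genes with many unpaired peaks were long, and the length of genes with many shared peaks was not compared. Unpaired peaks had 15202 nearest genes in the NeuN+ set and 10231 in the Olig2+ set, 7947 of them in both. Genes with at least 20 unpaired peaks numbered 464 and 451 and had median lengths of 99 and 52 kb, against 19.4 kb for all genes with an unpaired peak. By nearest gene the NeuN+ set had most at Rbfox3 with 145, Celf4 with 142, Phactr1 with 104, Umps with 102, Atp2b2 with 97, Celf2 with 97, Lingo1 with 90 and Mir29b-1 with 86. The Olig2+ set had most at A230009B12Rik with 146, Rnf220 with 116, Gse1 with 111, A330074K22Rik with 102, 4833428L15Rik with 99, Kazn with 98, Fam53b with 93 and Gm10532 with 92. Several of these names are small genes beside the one that contains the peaks.

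Counted by the gene whose intron contains them, 199 unpaired NeuN+ peaks lay in Rbfox3, which encodes the sorted antigen, and 1 of the Olig2+ set. Kalrn, a guanine exchange factor of dendritic spines, held 165 NeuN+ and 0 Olig2+ peaks, and Gabbr2 held 120 and 0. Atp2b2, a plasma membrane calcium pump, held 117 NeuN+ peaks, Lncpint 116, Celf4 106, Ptprn2 91 and Trio 88. For Olig2+ nuclei Itpk1, an inositol phosphate kinase, held 113 peaks against 10 of the NeuN+ set, Rnf220, a ubiquitin ligase, 113 against 1, Dscaml1 108 against 15 and Agap1 100 against 18. Ctif followed with 89 and Inpp5a with 87. Rows of unpaired peaks along 1 gene share that gene and are not independent of each other.

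**Figure D5:**
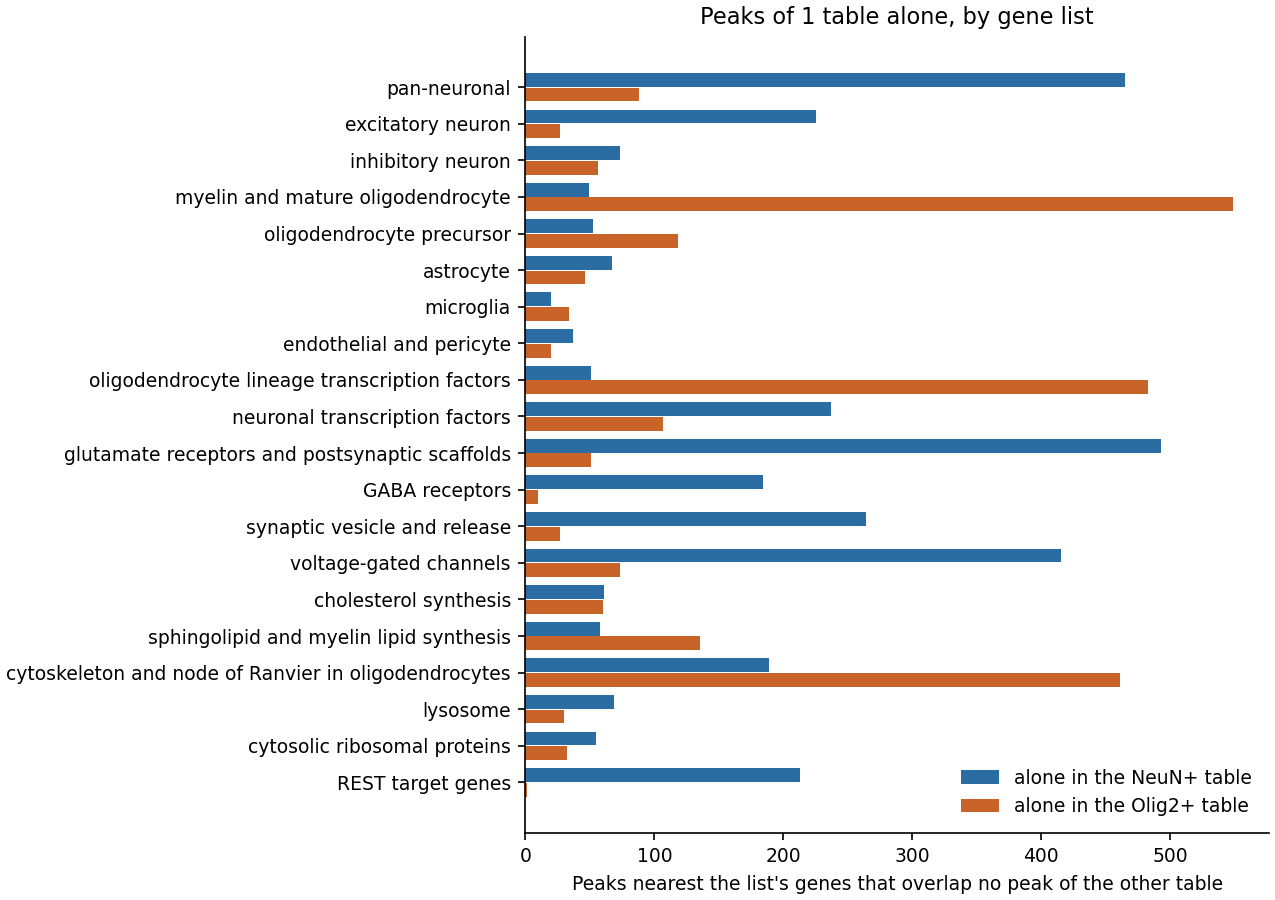
Number of peaks nearest the genes of each list that overlap no peak of the other set, blue for the NeuN+ set and orange for the Olig2+ set. The myelin list has 49 and 549, the pan-neuronal list 465 and 88, and the list of REST target genes 213 and 1.

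Unpaired peaks near the listed genes leaned the way of the start sites in some lists and not in others. Myelin genes had 549 unpaired peaks in the Olig2+ set and 49 in the NeuN+ set, and oligodendrocyte lineage factors 483 and 51. Genes of glutamate receptors and scaffolds had 493 in the NeuN+ set and 51 in the Olig2+ set, GABA receptors 184 and 10, voltage-gated channels 415 and 73, synaptic vesicle genes 264 and 27 and REST target genes 213 and 1. The list of cytoskeletal and nodal genes had 461 in the Olig2+ set and 189 in the NeuN+ set. The cholesterol list was even, at 61 NeuN+ and 60 Olig2+ peaks. Lysosomal genes, higher at start sites in Olig2+ nuclei, had more unpaired peaks in the NeuN+ set (69) than in the Olig2+ set (30), as the whole sets did (73541 and 48444). Ribosomal protein genes, also higher at start sites in Olig2+ nuclei, had 55 in the NeuN+ set and 32 in the Olig2+ set. Precursor markers, with 3 start sites higher in NeuN+ nuclei and 1 in Olig2+ nuclei, had 52 and 118.

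Across genes with at least 5 unpaired peaks the start site and the surrounding peaks leaned the same way. Where the start site was at least 2-fold higher in NeuN+ nuclei, a median of 90% of a gene's unpaired peaks were of the NeuN+ set (742 genes). Where it was at least 2-fold higher in Olig2+ nuclei, the median was 25.4% (684 genes), and where it was not called, 66.7% (1118 genes). Over all 4392 genes the median was 66.7% and Pearson's r between the log2 difference and the percent was 0.488, a description across genes, which share libraries and are not independent replicates.

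Promoter windows under the peaks, 300 bases from 250 before to 50 after a RefSeq start, differed in CpG content by class. The ratio of observed to expected CpG had a median of 0.76 in 899 windows at least 2-fold higher in NeuN+ nuclei, 0.77 in 1026 windows at least 2-fold higher in Olig2+ nuclei and 0.82 in 2571 windows not called. It was 0.60 in 1696 windows under unpaired NeuN+ peaks and 0.50 in 725 under unpaired Olig2+ peaks, against 0.77 in 10172 windows under any start-site peak and 0.38 in all 32851 RefSeq windows. Windows under unpaired peaks thus had lower medians than those under shared peaks, and an unpaired peak need not lack tags in the other sort.

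In all, 14 motifs were searched on both strands, and the shares are descriptions with no test. The RFX motif printed above was in 2.34% of windows at least 2-fold higher in NeuN+ nuclei (21 windows), 0.39% of those at least 2-fold higher in Olig2+ nuclei (4 windows), 0.673% of those higher in NeuN+ nuclei by less than 2-fold, 0.943% under unpaired NeuN+ peaks, 0.816% of windows under any start-site peak and 0.773% of all RefSeq windows. The SOX motif was in 8.14% of windows under unpaired Olig2+ peaks, 3.77% under unpaired NeuN+ peaks, 3.47% under any start-site peak and 5.85% of all windows. Among shared peaks it was in 4.09% of windows at least 2-fold higher in Olig2+ nuclei and 2.22% of those at least 2-fold higher in NeuN+ nuclei. The NRF1 motif GCGCATGCG was in 1.33% of windows at least 2-fold higher in NeuN+ nuclei, 4.39% of those at least 2-fold higher in Olig2+ nuclei, 3.83% under any start-site peak and 1.75% of all. The ETS motif CCGGAAG was in 10.7%, 18.7%, 17% and 8.86% of the same 4 classes. Windows with these motifs differ in base composition, and its part in the shares was not tested.

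The comparison was repeated in the SgshKO libraries, whose NeuN+ libraries held 21.5% and 21.2% of tags in peaks and whose Olig2+ libraries held 30.9% and 31.8%. There 13.2% of shared peaks were higher in NeuN+ nuclei and 48.4% higher in Olig2+ nuclei, with a median log2 difference of -0.53. After quantile normalization the SgshKO calls split 7567 to 7018. Of the 3647 peaks at least 2-fold higher in WT NeuN+ nuclei, 3134 kept the sign, 2310 were called in the same direction and 87 in the opposite one. Of the 5035 at least 2-fold higher in WT Olig2+ nuclei, 4946 kept the sign, 4572 were called in the same direction and 8 in the opposite one. The median of the NeuN+ peaks went from 1.49 in WT to 0.86 in SgshKO and that of the Olig2+ peaks from -1.48 to -1.70. Both groups of peaks were chosen by their WT differences. A smaller difference in SgshKO nuclei may come in part from that choice, which was not tested. The interaction of sort and genotype passed the threshold at 35% of shared peaks, with a median of -0.41 over all, and the lower share of tags in peaks of the SgshKO NeuN+ libraries moves with it; its part was not tested.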

How the data were processed

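Per the submitters' processing notes, reads were aligned with Bowtie2 to mm10 and processed with HOMER; no source used here gives their versions. The deposited values are a signal: the authors' tags per peak, scaled in each library to 10000000 tags per the file headers. Multiplied by the header's library total, 100.0% of them gave whole reads within 0.01. The deposited tables also hold the authors' score for each peak, used only as a filter. Peaks were called separately for the 2 sorts, but every library is scaled to the same total, which allows tests across the tables.

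The members and the gene lists were chosen with earlier results of these data known. Shared peaks overlap one to one by at least 50% of both. On log2(tags + 1), limma 3.58.1 (R 4.3.3, empirical Bayes with trend) tested the 4 WT libraries, with Benjamini-Hochberg adjustment over all 29547 shared peaks. Differences are on that scale, which understates those of low peaks. The SgshKO comparison and the interaction used the 8 libraries of both sorts. Tested on simulated reads for these peaks and samples, limma recovered 64% of 2-fold and 98% of 4-fold changes, with 7 false calls. Only 100 peaks were changed at each fold, far fewer than were called in the data. Recovery and false calls may therefore differ in the data. Alternatives were edgeR 4.0.16 and DESeq2 1.42.0 on the recovered reads, other scalings, pseudocounts, filters and overlaps, and leaving out each library.

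Named peaks are the 6 largest called differences in each direction, at start sites and beyond, with 1 per gene. Each had a mean at or above the shared median of 27.0 tags and all NeuN+ values on 1 side of all Olig2+ values. Also named are the first 4 shared genes of each list, the 5 strongest unpaired peaks of each class and the 8 genes with most of them. Promoters and microRNAs came from RefSeq tables (GRCm38.p6), matched by symbol; microglia libraries were not used here. Some items that this rule names are not reported here. Same-numbered libraries of the 2 sorts did not deviate together (correlation 0.0151).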

Additional observations from a re-analysis of the deposited data

Results flagged for a closer look

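The difference between the sorts depended on the genotype at 57 of the 90 named peaks reported by the interaction in limma over 8 libraries, with adjusted p from 3.96e-09 to 0.0458. The value is the log2 difference NeuN+ minus Olig2+ in SgshKO nuclei minus the same in WT nuclei. Of the 57, 51 were negative. The same interaction was called at 10355 of all 29547 shared peaks, 9383 negative and 972 positive. Its median over all shared peaks was -0.41. The lean to negative values was thus not particular to the named peaks. After quantile normalization of all 8 libraries, chosen after seeing the data, 28 of the 57 were also called with the same sign. Over all shared peaks that setting gave 2759 negative and 2640 positive calls. The SgshKO NeuN+ libraries held 21.5% and 21.2% of their tags in peaks and the WT ones 26.7% and 25.9%, and the part of this in the values was not tested.

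At start sites the values were Vipr1 -1.87, Fam43b -2.52, Hsf4 -1.93, Dbn1 -1.97, Unc5d -1.79, Ptgds 0.78, Tkt 0.81, Litaf -0.84 and Snap25 -0.97. The values continued with Syt1 -0.89, Syn1 -0.77, Tubb3 -0.84, Camk2a -1.49, Cux2 -1.64, Rorb -0.73, Gad1 -2, Dlx1 -1.35 and Mbp -0.96. Further start sites gave Cnp -0.71, Ptprz1 -1.80, Vcan -1.26, Lhfpl3 -1.32, Atp1b2 -1.02, Olig1 -0.84, Hes5 -1.80, Mef2a -0.64 and Mef2d -1.25. Others at start sites gave Egr1 -0.69, Grin1 -1.76, Gabbr1 -0.59, Gabbr2 -1.77, Syn3 -1.05, Scn8a -1.05, Cacna1b -0.86, Hmgcs1 -0.44 and Sqle -1.14. The next start sites gave Fdft1 -0.49, Ugt8a -1.44, Gal3st1 -0.85, Fa2h -0.70, Cers2 -0.87, Nfasc -1.14, Cntn2 -1.07, Lamp1 -0.82 and Ctsb -1.05. The remaining start sites gave Ctsd -0.52, Chgb -1.31 and Caly -0.95. After quantile normalization Hmgcs1 (0.18), Fdft1 (0.17), Ctsd (0.17) and Gabbr1 (0.02) changed sign and were not called. At distal peaks the values were Mir124a-3 -2, Mir6944 -2.76, Elk3 -1.49, Lingo1 -1.59, Dpm2 0.77, Spata24 0.82, Ralgps1 2.65, Mir7052 -0.66 and Hif3a 1.84, named by nearest gene. Positive values came from 6 of the 57 peaks, among them Ralgps1 and Hif3a, whose Olig2+ excess was smaller in SgshKO nuclei.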

How the results depend on the processing

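Of 29547 shared peaks 17714 were called, and with 80% reciprocal overlap 11091 (of 18585) and at a peak score of 1000 in both sets 11421 (of 17629), where fewer peaks were tested. For distal peaks, 8416 called, the same settings gave 4764 and 3673, and DESeq2 gave 5405, for which the cause was not tested. Unpaired peaks went from 68.3% of the NeuN+ set to 72.5% when every peak without a reciprocal partner was counted, to 52.9% at or above the set's WT median and to 57.7% at the highest score. The Olig2+ set went from 58.7% to 64.2%, 44.6% and 48.0% in the same order. Leaving out each library gave 12748 to 16167 calls over all shared peaks, 6683 to 8687 at start sites, 6025 to 7428 at distal peaks and 15223 to 17054 in SgshKO nuclei. The interaction was called at 57 named peaks and at 31 after quantile normalization, 9 larger and 22 smaller. With the replicate number as a replicate block, 18157 shared peaks were called, 9472 at start sites and 8625 at distal ones; the numbers name no shared animal or batch. Of 1347 alternative values at the 90 named peaks, 1272 kept direction and call, 55 lost the call and 20 gained one. DESeq2 also lost the calls at Camk2a, Cux2, Gad1, Dlx1, Lhfpl3, Gabbr1, Sirt2, Ctsb and Rpl5. With 2 libraries a sort, few reads at low peaks limit the precision.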
